A study of Mus musculus with 10 samples.

Results

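Scaffold genes of the postsynaptic density, the protein meshwork under the membrane of excitatory synapses, were compared between Arid1b+/- mice (HT) and wild-type mice (WT). The 10 genes were Dlg2, Dlg3, Dlg4, Shank1, Shank2, Shank3, Homer1, Dlgap1, Dlgap2 and Dlgap3. They were chosen by symbol, and all 10 were found among the 18216 genes of the table. Each of 5 HT and 5 WT males of the C57BL/6N strain gave 1 library of prefrontal cortex RNA on postnatal day 10, named here HT1 to HT5 and WT1 to WT5. HT mice carried 1 germline copy of Arid1b, a chromatin remodeler gene, with exon 5 targeted by CRISPR/Cas9 so that its protein is truncated, and WT mice carried 2 intact copies. The line was bred from HT males and WT C57BL/6N females, the mutation is constitutive, and the labels give no treatment for either group. Litters are not given in the labels. Values were normalized counts, meaning abundance estimates that the authors scaled between libraries, so they are relative to the other genes of the same library and the sequencing depth is unknown.

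As background, an excitatory postsynaptic density is built in layers. Dlg proteins (the PSD-95 family) lie next to the membrane and hold glutamate receptors and adhesion proteins through their PDZ domains. Dlgap proteins (also called SAPAP or GKAP) bind the guanylate kinase-like domain of Dlg proteins and link them to Shank proteins. Shank proteins form the deeper layer, and Homer proteins bind Shank and connect it to metabotropic glutamate receptors and to calcium stores. The study recorded excitatory synapses in this cortex in juvenile and adult mice. From RNA of this cortex at the age used here, it reported negative enrichment of synapse-related gene sets. The question here is whether RNA of the core scaffold already differs between genotypes at this age.

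Totals of the normalized counts lay between 31106330 and 32106791 per mouse. Arid1b, the targeted gene, lay between 1767 and 1987 in HT mice and between 2662 and 3018 in WT mice, so every library matched its label. The labeled tissue was checked with marker lists. All 8 markers of cortical glutamatergic neurons were above 0 in every mouse, with sums of 54239 to 72399.6 in HT and 60548 to 74939 in WT mice. HT2 had the lowest of these sums and the highest share of mitochondrial transcripts, 8.43% against 5.15% to 6.76% in the other mice. The 12 striatal markers, of which 1 was at 0 in at least 1 mouse, summed to 8084 to 24132 in HT and 7177 to 18928 in WT mice, so these sums varied widely within both groups. In such bulk tissue, fewer cells of a type and less RNA per cell cannot be told apart.

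None of the 10 scaffold genes passed the threshold of an adjusted p under 0.05 (limma, adjusted over 16781 genes), a threshold that 0.0179% of all tested genes passed, and 0.00596% as lower in HT. The log2 fold change was below 0 for 9 of the 10, as it was for 51.2% of all tested genes. The median log2 fold change of the 10 genes was -0.05, against 0.00 for all tested genes. That median was -0.01 with the glutamatergic marker score as a covariate, -0.02 with quantile normalization, -0.03 without HT2 or without WT3, and -0.09 without WT4. An unadjusted limma p under 0.05 was found for 1 scaffold gene, Shank1, and for 9.23% of all tested genes, 4.52% being lower in HT. The 95% intervals of the log2 fold changes reached 0.10 to 0.20 to either side of the estimate, and their outermost bounds over the 10 genes were -0.33 (Homer1) and 0.20 (Shank3). Single mice lay closer together for Dlg4, with a within-genotype SD of 0.04 on the log2 scale, than for Homer1, with 0.18, while the median gene with a mean of at least 1000 had 0.09.

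Marker lists of the cell types in this tissue, from the same fit, are given beside these estimates. Of the 10 astrocyte markers, 10 had a positive log2 fold change (median 0.22), 6 of them with an unadjusted limma p under 0.05, and of the 10 microglia markers 10 were positive (median 0.17), 3 at that p. The 9 pan-neuronal markers had 7 negative log2 fold changes (median -0.08), 3 at that p, and the 8 glutamatergic neuron markers had 6 (median -0.08), 2 at that p. The 10 GABAergic neuron markers went mostly the other way, with 8 positive log2 fold changes (median 0.06), 1 marker in each direction at that p, and the 10 oligodendrocyte lineage markers had 10 positive ones (median 0.24), 1 at that p. The shifts were larger for markers of neighboring regions, with 11 of 12 striatal markers positive (median 0.48), 0 at that p, and 7 of 7 olfactory bulb markers (median 0.48), 1 at that p. No marker in these 8 lists passed adjustment over all genes. Of these lists, the glutamatergic and striatal ones were entered as covariates, and the part of the others was not tested.

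**Figure D1:**
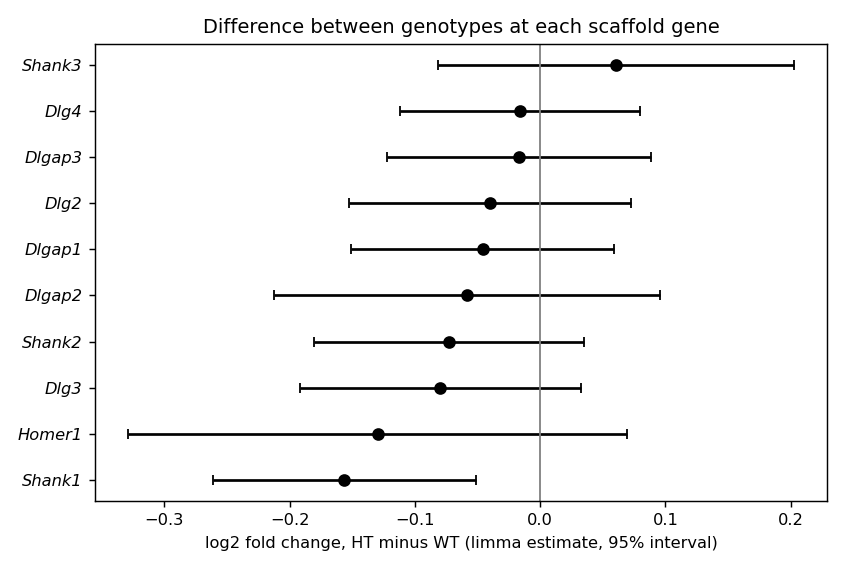
Log2 fold change (HT minus WT) of each scaffold gene, as points with 95% intervals from limma, 5 mice per genotype. The interval of Shank1 (-0.26 to -0.05) lies below 0, and the intervals of the other 9 genes include 0.

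The Shank genes encode the deep scaffold. Shank1 (ENSMUSG00000038738, GRCm38 chromosome 7, 44310253 to 44360572) encodes a member found mainly in dendritic spines of neurons. Its normalized counts were 21100.3, 20084, 21277, 21195 and 20612 in HT1 to HT5 and 23859, 21884, 23474, 21969.5 and 25139 in WT1 to WT5. Every HT value lay below every WT value, which was the case for 0.918% of all tested genes (1.62% in either direction). HT mice averaged 20854 ± 502 and WT mice 23265 ± 1368 (SD, n = 5 each), so that HT stood at 89.6% of WT. This is a log2 fold change of -0.16 (SE 0.05) with an unadjusted limma p of 0.00657, and with an adjusted p of 0.47 Shank1 did not pass over all genes. The difference in log2 level was -0.15 when HT2, HT5 and WT4 were left out together and -0.13 with the glutamatergic marker score as a covariate. It ranked 233 by p among all tested genes.

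Shank2 (ENSMUSG00000037541, chromosome 7, 144001928 to 144424494), also a scaffold of glutamate receptor complexes, had normalized counts of 10594, 10632, 11364, 11787 and 10688 in HT1 to HT5. In WT1 to WT5 they were 12105, 11467, 11656, 10577 and 12129.6. HT1, HT2, HT5 and WT4 formed the low end and the groups overlapped. Their log2 fold change of -0.07 (SE 0.05) had a limma adjusted p of 0.63, and was -0.02 with quantile normalization.

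Shank3 (ENSMUSG00000022623, chromosome 15, 89499623 to 89560261), whose human counterpart is a gene of Phelan-McDermid syndrome, was the 1 scaffold gene with a positive estimate. Shank3 normalized counts were 10541, 12242, 10972, 11509.8 and 10341 in HT1 to HT5 and 11703, 11349, 9369.6, 10031 and 10944 in WT1 to WT5. The highest value was that of HT2 and the lowest that of WT3, and the groups overlapped. Its log2 fold change of 0.06 (SE 0.07, 95% interval -0.08 to 0.20) had a limma adjusted p of 0.77. Leaving out 1 mouse gave from 0.01 (without WT3) and 0.03 (without HT2) to 0.09 (without WT1), and it was 0.03 with the glutamatergic covariate and 0.10 with quantile normalization.

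The Dlg genes encode the membrane-side scaffold. Dlg4 (ENSMUSG00000020886, chromosome 11, 70016942 to 70047522) encodes PSD-95, the most abundant scaffold of mature excitatory synapses. Its normalized counts were 35079, 34509.98, 33831, 33919.6 and 34214 in HT1 to HT5 and 35528, 34308, 34609.9, 33013 and 36119.9 in WT1 to WT5. The HT values lay inside the WT range. With a log2 fold change of -0.02 (SE 0.04), a 95% interval of -0.11 to 0.08 and a limma adjusted p of 0.92, Dlg4 had the narrowest interval of the 10 genes. Its estimate was -0.03 without WT4, -0.0019 without WT5 and 0.02 with quantile normalization.

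Dlg2 (ENSMUSG00000052572, chromosome 7, 90476672 to 92449247), a close relative of Dlg4, had normalized counts of 27277, 25800.4, 27974, 29438 and 27871 in HT1 to HT5. In WT1 to WT5 they were 29199, 27364, 28999.97, 26528 and 30207. HT2 and WT4 were the lowest mice of their groups, and the ranges overlapped over most of their length (log2 fold change -0.04, SE 0.05, limma adjusted p 0.81). Leaving out 1 mouse gave from -0.07 (without WT4) to -0.02 (without HT2), and the estimate was -0.0094 with the glutamatergic covariate and -0.0077 with quantile normalization.

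Dlg3 (ENSMUSG00000000881, chromosome X, 100767722 to 100818410) encodes SAP102, a form that carries NMDA receptors at young synapses before PSD-95 becomes dominant. The mice had normalized counts of 7228, 6237, 7219, 7079 and 6759 in HT1 to HT5, and of 7181, 7249.8, 7939.9, 6882 and 7217 in WT1 to WT5. HT2 was low and WT3 high, while the other 8 mice lay between 6759 and 7249.8. For Dlg3 the log2 fold change of -0.08 (SE 0.05) had a limma adjusted p of 0.62. It was -0.04 without HT2, -0.05 without WT3 and -0.04 with the glutamatergic marker score as a covariate.

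The Dlgap genes encode the linkers between Dlg and Shank. Dlgap1 (ENSMUSG00000003279, chromosome 17, 69969073 to 70821413) lies on the chromosome of Arid1b, with 65.0 Mb between their starts. Its normalized counts were 10626, 10085, 10263, 10295 and 10917 in HT1 to HT5 and 10119.6, 11029, 11271, 10022 and 11494 in WT1 to WT5. Both groups began near the same low value, and the log2 fold change was -0.05 (SE 0.05, limma adjusted p 0.76), and -0.02 with the glutamatergic covariate or without WT5. It was -0.07 without WT4 and -0.00046 with quantile normalization.

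Dlgap2 (ENSMUSG00000047495, chromosome 8, 14095865 to 14847680) had normalized counts of 2766, 2218, 2787, 2808 and 2444 in HT1 to HT5. In WT1 to WT5 they were 2721, 2760.3, 2896, 2388 and 2766. HT2, WT4 and HT5 were low and the other 7 mice lay between 2721 and 2896. The log2 fold change was -0.06 (SE 0.07, limma adjusted p 0.80), and it was -0.0020 without HT2 and -0.10 without WT4.

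Dlgap3 (ENSMUSG00000042388, chromosome 4, 127169204 to 127237022) is known for its high level in striatum, and mice that lack it groom excessively. Its normalized counts were 14209, 14238, 13722, 13339.8 and 14492 in HT1 to HT5 and 14531, 14082, 13681, 13151 and 15437 in WT1 to WT5. The HT values lay inside the WT range (log2 fold change -0.02, SE 0.05, limma adjusted p 0.93). The estimate changed sign, to 0.02, under quantile normalization, and leaving out 1 mouse gave from -0.04 (without WT4) to 0.01 (without WT5).

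Homer1 (ENSMUSG00000007617, chromosome 13, 93299635 to 93405129) encodes both long coiled-coil adaptors and a short form that neuronal activity induces, which the gene-level values do not separate. Its normalized counts were 5455, 4122, 5756, 5656 and 4868 in HT1 to HT5 and 5618, 6057, 6106, 4699.7 and 5719 in WT1 to WT5. HT2, WT4 and HT5 were again the 3 lowest mice. HT mice averaged 5171 ± 680.2 and WT mice 5640 ± 566 (SD, n = 5 each), a log2 fold change of -0.13 (SE 0.09, 95% interval -0.33 to 0.07, limma adjusted p 0.65). Homer1 thus had the widest interval. Its estimate was -0.05 without HT2, -0.19 without WT4, -0.06 without HT2, HT5 and WT4, and -0.03 with the glutamatergic marker score as a covariate.

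**Figure D2:**
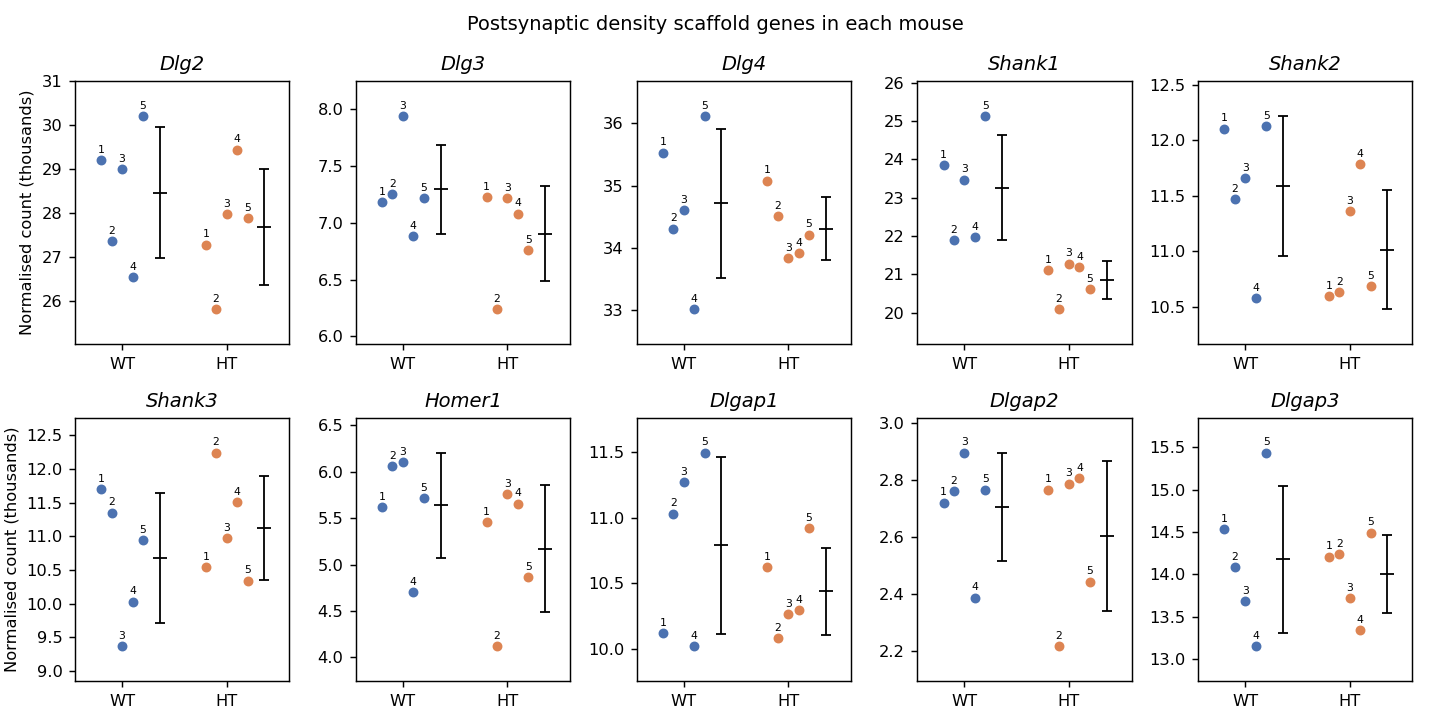
Normalized counts (divided by 1000, axes do not start at 0) of the 10 scaffold genes, 1 point per mouse with its replicate number, and the mean ± SD of each genotype in black. Shank1 is the gene whose HT points (20084 to 21277) lie below all WT points (21884 to 25139), and HT2 and WT4 are low for Homer1 and Dlgap2 in their groups.

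Because Homer1 has a known activity-dependent form, and because a search of the scaffold promoters found its match there, the 250 bases before 1 of its 2 starts listed by RefSeq (GRCm38.p6, chr13:93303507-93303756, plus strand) are shown, with matches to TGACGT, the core of the cyclic AMP response element, in capitals.
Homer1: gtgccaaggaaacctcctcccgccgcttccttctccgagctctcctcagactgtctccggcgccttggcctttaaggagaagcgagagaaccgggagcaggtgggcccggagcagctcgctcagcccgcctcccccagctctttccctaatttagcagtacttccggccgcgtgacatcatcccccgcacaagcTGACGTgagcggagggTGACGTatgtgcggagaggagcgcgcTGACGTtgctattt
The 3 matches begin 56, 40 and 14 bases before the start. Both strands were searched, and the matches do not overlap. Of 32841 windows of this length, 6.47% held the 6 letters at least once and 0.152% held them 3 times or more. Windows were given for 7 of the 10 scaffold genes, 14 in all, and this was the 1 window among them with a match. A match describes the sequence and is no evidence that a factor bound there in these mice.

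Ratios within families do not depend on a single scaling factor per library, and 6 were compared between genotypes by an exact permutation test (two-sided) that takes every way to label 5 of the 10 mice as HT. The smallest p this design allows is 0.00794. None of the 6 passed after Benjamini-Hochberg adjustment, and 1 was under 0.05 before it. The log2 ratio of Shank1 to Shank2 was 0.92 ± 0.05 in HT mice against 1.01 ± 0.05 in WT mice (SD, n = 5 each, difference -0.08, exact permutation p = 0.0476, adjusted 0.21). The ratio of Shank3 to Shank2 was 0.01 ± 0.11 in HT mice against -0.12 ± 0.12 in WT mice (SD, n = 5 each, difference 0.13, exact permutation p = 0.0714, adjusted 0.21). Without HT2 or without WT3 that difference was 0.09 or 0.08 (adjusted exact permutation p 0.60 and 0.62). Both ratios overlapped between the groups.

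The ratio of Dlg4 to Dlg3 follows the exchange of SAP102 for PSD-95 during synapse maturation. It was 2.31 ± 0.09 on the log2 scale in HT mice against 2.25 ± 0.08 in WT mice (SD, n = 5 each, difference 0.06, exact permutation p = 0.325, adjusted 0.60). HT2 had the highest ratio, 2.47, and WT3 the lowest, 2.12, and the difference was 0.03 without HT2 and also 0.03 without WT3. The adjusted exact permutation p was also 0.60 for Dlg4 to Dlg2 (difference 0.02), Dlgap3 to Dlgap1 (0.03) and Homer1 to its paralog Homer2 (-0.10). The difference for Homer1 to Homer2 was -0.0048 without HT2, -0.03 without WT2 and -0.17 without WT4, and that for Dlgap3 to Dlgap1 was 0.01 without HT2, 0.00063 without WT3 and 0.06 without WT1.

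**Figure D3:**
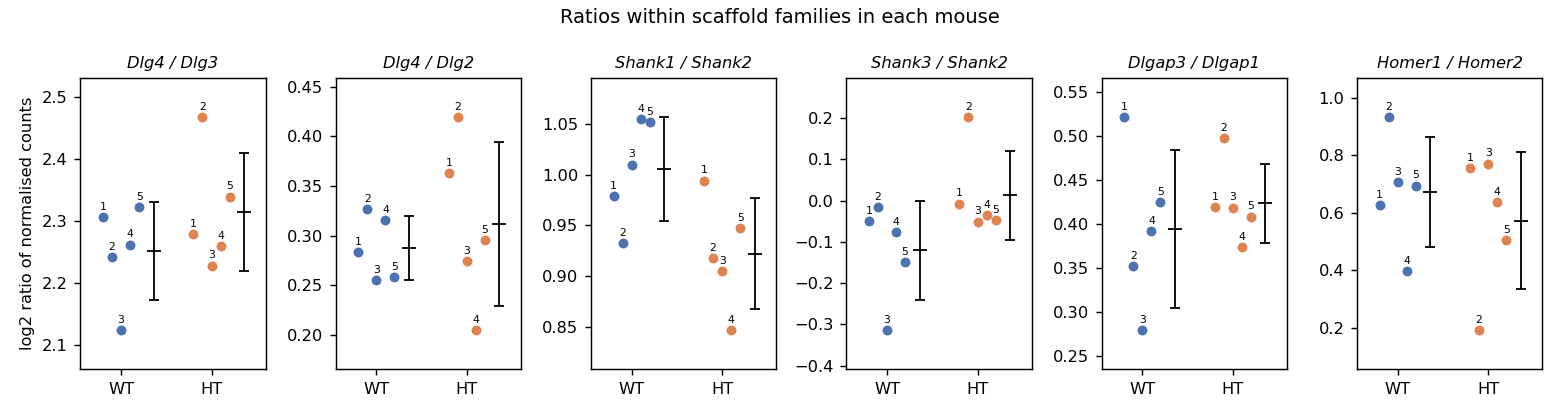
Log2 ratios of normalized counts within scaffold families, 1 point per mouse with its replicate number, and the mean ± SD of each genotype in black. The HT and WT points overlap in all 6 panels, and HT2 (0.20) stands above the other mice for Shank3 to Shank2.

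The levels of the 10 genes were set side by side as normalized counts per kilobase of exon (union of all annotated exons). Dlgap3 was highest, at 3116 ± 147 (SD over the 10 mice), and was followed by Dlg4 at 2605 ± 67.2 and Shank1 at 2098 ± 152. Dlg2 (1724 ± 85.1), Dlg3 (1215 ± 74.1), Shank3 (1186 ± 93.0) and Shank2 (1049 ± 58.5) came next on this per-kilobase scale. Dlgap1 (593 ± 29.9), Homer1 (451 ± 53.4) and Dlgap2 (432 ± 36.2) were the lowest, and the highest and lowest means differed 7.22-fold. Neighbors in this order were compared within each mouse by exact two-sided sign-flip permutation over 10 mice, adjusted over 9 pairs. Dlg3 and Shank3 did not differ beyond their spread (7 of 10 mice in that order, exact permutation p = 0.539). The other 8 pairs had an adjusted exact p of 0.026 or less, with Homer1 above Dlgap2 in 9 of 10 mice. The pairs were taken from the order of the same means, and the lengths are fixed. These p values therefore measure only how alike the mice were, without any error in the lengths.

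This order rests on the length used. Annotated exons are longest for Dlgap1 (17890 bases), Dlg2 (16280.0 bases) and Dlg4 (13251 bases), and their RNAs hold only part of them. With the longest protein-coding transcript as the length, Dlg4 was highest at 5456 ± 141 (SD), followed by Dlg2 at 3592 ± 177 and Dlgap3 at 3349 ± 158, and Dlgap2 remained the lowest at 590 ± 49.4. Within the Shank family, Shank1 had the highest level with every length used. Its share of the summed Shank level per kilobase of exon was 47.1% ± 1.37 in HT mice against 49.7% ± 1.63 in WT mice (SD, n = 5 each).

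**Figure D4:**
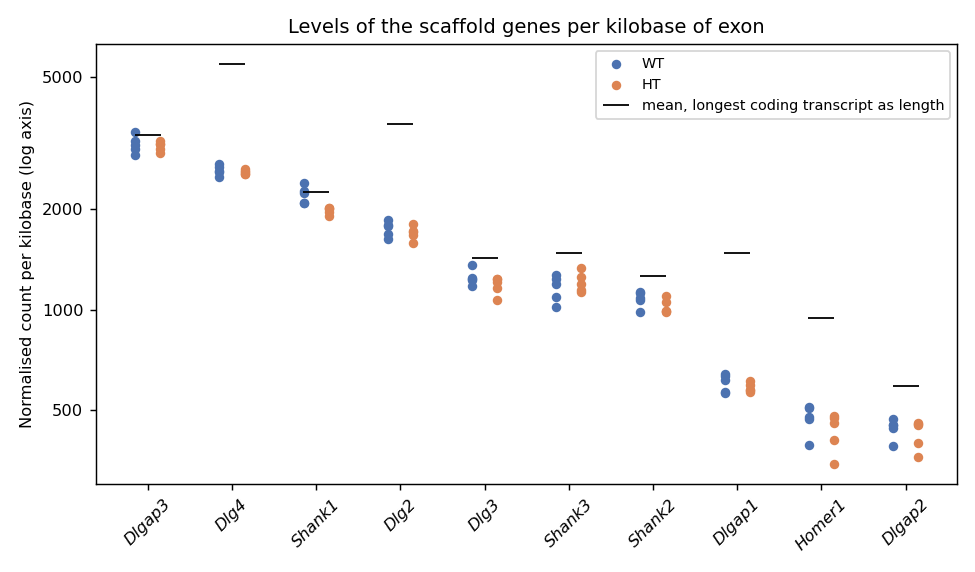
Normalized counts per kilobase of exon (log axis) of the 10 scaffold genes, 1 point per mouse and genotype, ordered by their mean, with black dashes for the mean when the longest coding transcript is used as the length. Dlgap3 (3116) and Dlg4 (2605) are highest by exon length, and the dash of Dlg4 (5456) is the highest by transcript length.

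The scaffold genes were compared with one another over the 10 mice. Of the 45 pairs, 38 had a positive correlation of log2 values and 7 a negative one, and 5 pairs had an adjusted p under 0.05 for Pearson's r (permutation test with 100000 permutations, adjusted over 45 pairs). Among all pairs of the 6145 tested genes with a mean of at least 1000, 55.7% had a positive correlation, against 84.4% of the scaffold pairs, and 1.45% reached an r of 0.85, as these 5 scaffold pairs did. The difference between those shares was not tested, since pairs share genes and libraries. Homer1 and Dlgap2 were closest (r = 0.97, permutation p = 0.00018, adjusted 0.0054). Their rank correlation was 0.78 (permutation p = 0.0101, adjusted 0.15), and r was 0.90 without HT2 and WT4, the 2 mice farthest from the median of Homer1. In each such check the 2 mice were picked by 1 gene of the pair, the one named first in the list of 10. Homer1 and Dlg3 had r = 0.90 (permutation p = 0.00024, adjusted 0.0054), a rank correlation of 0.85 (permutation p = 0.00303, adjusted 0.068) and r = 0.89 without HT2 and WT3.

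Dlg2 and Shank2 were another close pair, with r = 0.87 (permutation p = 0.00156, adjusted 0.014), a rank correlation of 0.92 (permutation p = 0.00056, adjusted 0.025) and r = 0.83 without HT2 and WT5. Dlg4 and Dlgap3 also had r = 0.87 (permutation p = 0.00145, adjusted 0.014) and a rank correlation of 0.75 (permutation p = 0.0166, adjusted 0.19), and r was 0.62 without WT4 and WT5. Shank3 and Dlg3 had the most negative r, -0.58 (permutation p = 0.0756, adjusted 0.23, rank correlation -0.32 with permutation p = 0.369, adjusted 0.60). That relation rests on HT2 and WT3, since r was 0.63 without them, and without the same mice r of Shank3 was 0.82 to Homer1 (from -0.25) and 0.77 to Dlgap2 (from -0.25). All these points share libraries, and each library's scaling enters both values of a pair.

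Single mice of both genotypes carried much of this variation. WT4 was among the 2 lowest mice for 8 of the 10 scaffold genes and HT2 for 6, while WT5 was the highest mouse for 6. The summed normalized count of the 10 genes was 140168 to 147028 in HT and 139261 to 157173 in WT mice, with WT4 lowest and WT5 highest. HT2 and WT4 were also the mice with the lowest sums of the 8 glutamatergic neuron markers (54239 and 60548, against 65039.98 to 74939 in the others) and the highest sums of olfactory bulb markers (5147 and 4658, against 1118 to 3138; 7 of 8 listed markers were in the table). HT2 and HT5 had the highest sums of the 10 astrocyte markers (204110.4 and 194630, against 146254 to 185728 in the others) and of the 10 microglia markers (15378 and 14901, against 10722 to 12337). None of the markers in these 4 lists was at 0 in any mouse. HT2 and WT4 differed in the pan-neuronal list, with mean z-scores of -1.81 and 0.33. In the GABAergic list they had 0.21 and 0.70.

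**Figure D5:**
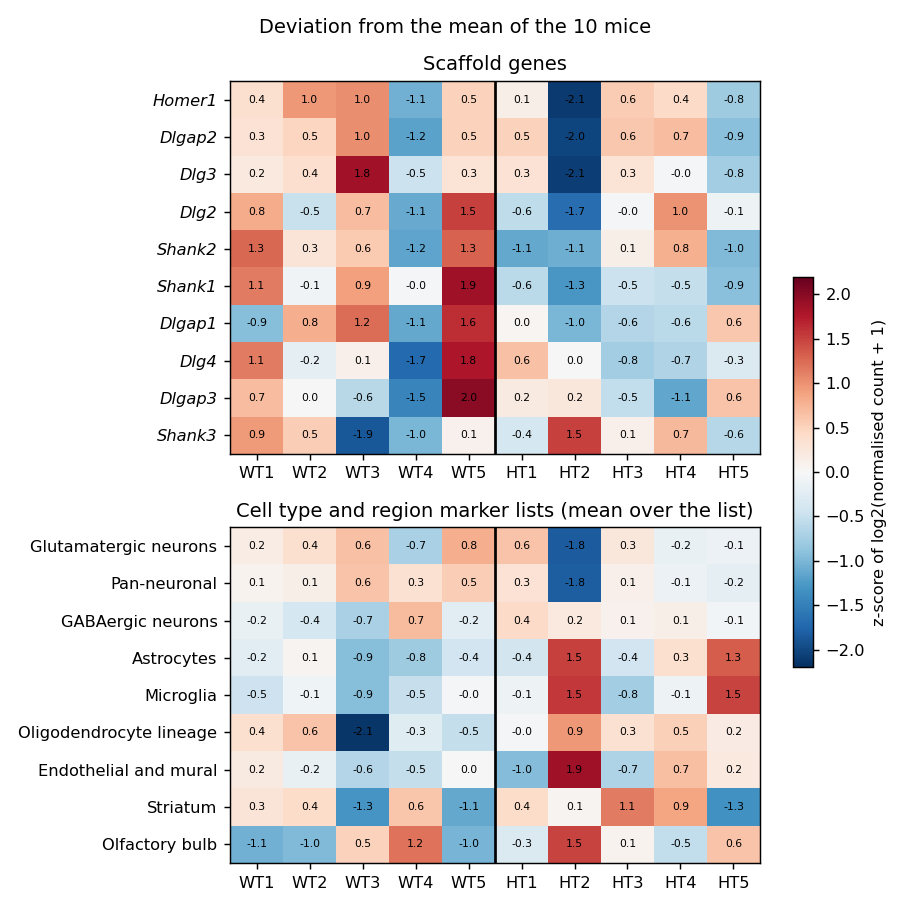
Z-scores over the 10 mice of log2(normalized count + 1) for each scaffold gene (top) and mean z-scores of marker lists (bottom), with WT mice left and HT mice right of the black line. HT2 is low (z-scores of -2.10, -2.02 and -2.08) for Homer1, Dlgap2 and Dlg3 and high (1.497) for Shank3, and WT4 is among the 2 lowest mice for 8 of the 10 genes.

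The genes whose levels followed the mean z-score of the 10 scaffold genes most closely over the 10 mice included Gfod1, Dusp10, Ppp2r2c and Tmem56, with r from 0.93 to 0.94. They were picked from the highest of 13871 genes, so their r is a description without a test.

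Other genes of the synapse were then counted by role in the same fit, from lists of gene symbols, each read against the shares of all tested genes with an unadjusted p under 0.05 that were lower (4.52%) or higher (4.71%) in HT. In none of the lists did a gene pass adjustment over all genes. Of the 6 paralogs of the scaffold genes (Dlg1, Dlg5, Dlgap4, Dlgap5, Homer2 and Homer3), 0 had an unadjusted limma p under 0.05, and their median log2 fold change was 0.07. Of 29 other scaffolds and adaptors, 1 was higher and 3 lower in HT at that p (median -0.03). The higher gene was Mpdz, which encodes a protein with many PDZ domains (log2 fold change 0.17, limma adjusted p 0.46). The lower ones were Magi1, a membrane-associated scaffold (-0.14, limma adjusted p 0.48), Lin7a, a small PDZ adaptor (-0.21, limma adjusted p 0.51), and its paralog Lin7c (-0.13, limma adjusted p 0.52), which is named after its value was seen.

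Of 29 receptors and adhesion proteins that the scaffold holds, 2 were lower at an unadjusted limma p under 0.05, both leucine-rich-repeat adhesion proteins. A negative log2 fold change was found for 25 of the 29 (median -0.08), against 51.2% of all tested genes, and HT2 had the lowest mean z-score of this list, -1.69 against -0.55 or more in the other mice. The 2 genes were Lrfn1 (-0.15, limma adjusted p 0.51) and Lrrtm1, a ligand of presynaptic neurexins (-0.15, limma adjusted p 0.51). Without HT2 they were -0.10 and -0.09, and Lrrtm1 was -0.09 with the glutamatergic covariate and -0.06 without HT2, HT5 and WT4. Of 26 signaling enzymes, 1 was higher, Nos1, the neuronal nitric oxide synthase (0.13, limma adjusted p 0.51), and the median was 0.01. Of 9 enzymes that add palmitate to PSD-95 or remove it, or belong to the same families, 1 was lower, the palmitoyltransferase gene Zdhhc5 (-0.15, limma adjusted p 0.48), which was -0.09 without those 3 mice.

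Lists from outside the excitatory postsynapse were set beside these. Of 7 genes of inhibitory postsynapses, 0 had an unadjusted limma p under 0.05 (median log2 fold change -0.03). Of 13 presynaptic active zone scaffold genes, 3 were lower at that p (median -0.07). Ppfia2, which encodes a liprin of the active zone, averaged 3732 ± 156 in HT mice against 4357 ± 284 in WT mice (SD, n = 5 each) without overlap, a log2 fold change of -0.22 (limma adjusted p 0.35). The other 2 were the vesicle priming genes Unc13b (-0.11, limma adjusted p 0.50) and Unc13a (-0.18, limma adjusted p 0.52). With the glutamatergic covariate Unc13a was -0.11, and Lin7a of the adaptor list was -0.14. A negative log2 fold change was found for 23 of the 29 other scaffolds and adaptors and 10 of the 13 active zone genes. The count was 12 of 26 for signaling enzymes and 6 of 9 for palmitate enzymes. For inhibitory postsynapses it was 4 of 7 and for paralogs 3 of 6. The list shares were not tested against each other.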

How the data were processed

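The data comprised 10 RNA-seq libraries, 5 HT and 5 WT, grouped by sample title. As the methods and the submitters' processing notes give it, the authors made stranded poly-A libraries, sequenced paired ends, estimated transcript abundance with Salmon 1.1.0 on GRCm38 with GC-bias correction, summed it to genes with tximport and divided it by DESeq2 1.30.1 size factors. The deposited values are therefore a normalized signal per gene and not counts. No step made more than 18.8% of values under 30 in a library whole multiples (tolerance 0.02 of a step), so reads were not recovered and no count test was run. The filter behind the lowest row total, 41.7, is not stated.

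Symbols, positions and exon lengths came from GENCODE M21 (18205 of 18216 identifiers matched), and promoter windows from RefSeq (GRCm38.p6). Values were transformed as log2(value + 1). Genes were kept if their mean reached 10, and the 16781 kept were fitted with limma 3.58.1 in R 4.3.3 (lmFit, eBayes with trend) with genotype as the only factor, with Benjamini-Hochberg adjustment over all of them. Reported changes therefore refer to log2(value + 1). Ratios, neighbors in level and correlations were tested by permutation in Python 3.11.15 (numpy 2.4.6, scipy 1.17.1), and the limma fit and the permutation tests were tested on simulated data. Salmon shares reads between similar transcripts by a model, so paralogs can exchange some reads.

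The scaffold genes and the gene lists were chosen with earlier results of these data known. Named were all scaffold genes, Arid1b, and up to 3 genes per list with the smallest unadjusted p under 0.05, besides the 5 genes most like the scaffold mean, of which 1 is not reported here. Libraries are separate mice, and litters or sequencing batches are not given. The alternatives were other pseudocounts (0.5 and 10), filters (none, mean of 50), scalings, variance prior, sample weights, the replicate number as a block, mice left out, correction for GC content and length by loess, marker scores as covariates and, for levels, other gene lengths.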

Additional observations from a re-analysis of the deposited data

Results flagged for a closer look

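Of 36 groups of 5 values examined (the scaffold genes, Arid1b, the 6 ratios and the summed scaffold value in each genotype), 1 held a mouse set far apart, where chance gives about 1.8. The log2 ratio of Shank3 to Shank2 in HT2 was 0.203, against -0.051 to -0.007 in the other HT mice, a gap of 0.829 of the group's range (critical value 0.71). HT2 also had the highest Shank3 value of all 10 mice.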

How the results depend on the processing

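In each alternative fit, 0 scaffold genes passed the threshold, and 0 did at an adjusted p under 0.1. The ratios were recomputed under fewer alternatives (pseudocounts, scalings, GC and length correction, the block and mice left out), with 0 of 6 past the threshold. For the block this count says nothing, since so few pairs of mice cannot give a p under 0.05. Fewer labelings remain with 3 mice left out, so passing there would need several ratios at the smallest possible p. Arid1b kept its call, with log2 fold changes from -0.61 to -0.56 when 1 mouse was left out and from -0.61 to -0.55 otherwise. Shank1 kept an unadjusted limma p under 0.05 in all 25 fits (0.00372 to 0.0224, adjusted 0.34 to 0.76), with log2 fold changes from -0.19 to -0.13. The number of scaffold genes with an unadjusted p under 0.05 was 1 to 3 when 1 mouse was left out. It was 3 without WT4, where Homer1 (-0.19) and Shank2 (-0.11) joined Shank1, and the cause was not tested. The share of all tested genes at that p in that fit is not given here, so the rise cannot be judged against it. The number with a negative log2 fold change was 7 to 9, and the median was -0.09 to -0.03 when 1 mouse was left out and -0.08 to -0.01 under the other alternatives, nearest 0 with the glutamatergic covariate.

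Signs changed where estimates were near 0. Dlg4 was 0.018 and Dlgap3 0.022 with quantile normalization, Dlgap3 was 0.0015 with the striatal covariate and -0.043 to 0.015 when 1 mouse was left out, Dlgap2 was 0.0010 without HT2, HT5 and WT4 together and 0.014 with the glutamatergic covariate, and the ratio of Dlg4 to Dlg2 was -7.1e-05 without those 3 mice and -0.0032 to 0.051 when 1 mouse was left out. In the order of levels, 2 of 10 genes kept their place with the longest coding transcript as the length and 1 with the longest coding sequence, and 8 to 10 kept it when 1 mouse was left out. With the replicate number as a block, Shank1 was -0.16 (limma adjusted p 0.50) and 0 genes passed. Same-numbered mice are not shown to be paired (mean correlation of their deviations 0.038). DESeq2 and other count fits were not run, since the values are not counts.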
